A study of Mus musculus with 3 samples.

Results

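The Foxc1-only intergenic peaks near genes are places in the mouse genome where ChIP-seq (chromatin immunoprecipitation followed by sequencing) with an antibody to the forkhead factor Foxc1 gave a peak, where no peak of its relative Foxc2 touched it, and which lay outside genes but not far from one. A Foxc1 peak was taken when no Foxc2 peak shared a base with it, when its summit lay outside every protein-coding RefSeq gene span (GRCm38, the assembly also called mm10), and when the nearest end of such a gene was more than 1 kb and at most 50 kb away. These rules kept 1115 of the 5207 Foxc1 peaks on chromosomes 1 to 19, X and Y (21.4%, exact Clopper-Pearson 95% interval 20.3 to 22.6%). The other Foxc1 peaks were shared with Foxc2 (427), lay without Foxc2 within 1 kb of a gene end (450) or deeper inside a gene (2468), or lay more than 50 kb from any gene (747). The peaks were thus chosen by the measured positions of both antibodies' peaks relative to each other and to genes, so their distance to genes and their lack of Foxc2 overlap are a description and not a result. The tissue was glomeruli of C57BL/6 mice at 8 weeks of age, isolated with magnetic beads. No genotype or treatment is named in the labels. There was 1 library with the Foxc1 antibody D8A6, 1 with the Foxc2 antibody AF6989 and 1 of input DNA, which was not analysed here. With 1 library per antibody no test between conditions was possible, and every interval below covers counting error only. A peak list holds no expression values, so the labelled tissue could not be checked against its markers. The labels name the whole glomerulus, so a peak cannot be assigned to any of its cell types.

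Forkhead factors bind DNA through a winged-helix domain, and Foxc1 and Foxc2 carry nearly the same one. Both are known for work in the development of the eye, the heart, the vessels and the kidney, and in the glomerulus they are best known as factors of the podocyte, the epithelial cell whose foot processes wrap the capillaries. Sites between genes are the usual place of distal enhancers, which can act on a neighbouring gene or on one farther away, so the nearest gene named below is a position and not a known target.

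A few of the peaks lay on the start of a long non-coding RNA gene (lncRNA), a kind of gene that the choice of peaks had not looked at, and for these some of the sequence under the peak is known. RefSeq promoter windows (GRCm38.p6) run from 250 bases before to 50 bases after a gene's start. Of the 1115 peaks, 16 overlapped such a window and 9 had their summit in it (0.807%, exact 95% interval 0.370 to 1.53%), all 9 at lncRNA genes. Summits had to lie more than 1 kb from protein-coding gene ends, so windows of those genes could hardly hold any. The share of intergenic sequence inside windows was not measured. The 9 summits lay between 171 bases before and 44 bases after the start. The highest fold enrichment among them, 6.86, belonged to the peak at 2310001H17Rik (chr6:129238012-129238411), 29.1 kb from the immune activation gene Cd69. The sequences shown are the stretches of peak inside the window that carry a forkhead-type match, read 5′ to 3′ on the strand of the lncRNA, with the matches in capitals.

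2310001H17Rik: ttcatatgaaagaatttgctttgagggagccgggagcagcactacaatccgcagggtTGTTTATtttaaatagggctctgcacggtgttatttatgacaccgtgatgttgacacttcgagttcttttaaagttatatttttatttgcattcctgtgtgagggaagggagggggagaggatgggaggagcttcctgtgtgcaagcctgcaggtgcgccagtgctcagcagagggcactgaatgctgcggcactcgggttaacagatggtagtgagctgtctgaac
9230116L04Rik: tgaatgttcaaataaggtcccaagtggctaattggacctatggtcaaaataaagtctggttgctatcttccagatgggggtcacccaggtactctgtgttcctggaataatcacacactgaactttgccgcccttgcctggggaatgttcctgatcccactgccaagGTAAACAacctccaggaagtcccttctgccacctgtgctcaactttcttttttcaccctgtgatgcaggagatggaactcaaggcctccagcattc
Gm41862: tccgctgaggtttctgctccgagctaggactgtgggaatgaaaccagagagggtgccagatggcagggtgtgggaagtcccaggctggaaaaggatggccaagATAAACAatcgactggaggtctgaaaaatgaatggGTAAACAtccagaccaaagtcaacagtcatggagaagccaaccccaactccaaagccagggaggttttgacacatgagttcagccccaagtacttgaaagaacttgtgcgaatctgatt
Gm39349: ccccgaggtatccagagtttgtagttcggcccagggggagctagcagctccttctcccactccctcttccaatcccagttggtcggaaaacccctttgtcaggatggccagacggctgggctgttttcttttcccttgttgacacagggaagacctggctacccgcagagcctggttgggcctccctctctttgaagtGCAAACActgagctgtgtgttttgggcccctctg

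The stretches come from chr6:129238012-129238295 (minus strand), chr12:79103890-79104152 (minus), chr19:53084787-53085043 (plus) and chr9:61339280-61339511 (plus). The core TGTTTAC, searched on both strands, occurred in 2 of the 9 windows, at 9230116L04Rik (peak fold 5.85) and Gm41862 (3.55), and in 3.65% of all 32851 RefSeq promoter windows of this length (4.83% of the 11588 of lncRNA genes). TGTTTGC occurred in 1 window, at Gm39349 (fold 3.96, 32.9 kb from the corepressor gene Tle3), against 5.95% of lncRNA windows. TATTTAC occurred in 0 of the 9 (3.87% of lncRNA windows). TGTTTAT, added after the sequences had been seen, occurred in 2, at 2310001H17Rik and beside the core in Gm41862, against 5.84%. Of 13 other motifs searched on both strands, the nuclear factor I half-site TTGGCA was in 4 of the windows (16.0% of lncRNA windows). GTGGGNG of the Wt1 and Egr type was in 4 (27.5%), the TEAD form GGAATG in 3 (16.6%) and the ETS form AGGAAGT in 3 (9.87%). The other ETS form, CCGGAAG, was in 0 (3.89%), as were the homeobox, MAF, glucocorticoid receptor and CTCF motifs. The remaining motifs were in 1 or 2 windows each. The search covered whole windows, so a match can lie in a part of the window that the peak did not cover. With 9 windows these counts describe single places, and a match is not a measured binding site.

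The strength of the peaks was that of other Foxc1-only peaks. Fold enrichment, the authors' value for the signal at a summit relative to the peak caller's background, had a median of 4.90 (quartiles 4.11 and 6.43, from 1.94 to 40.5). Medians of the other Foxc1-only classes were 5.03 at gene ends, 4.88 inside genes and 4.75 in gene deserts, and that of peaks shared with Foxc2 was 5.85. Among the intergenic peaks 111 reached a fold of 10 (9.96%) and 20 a fold of 20 (1.79%). In gene bodies 9.48% reached 10, in gene deserts 9.37% and among shared peaks 23.9%. The median width was 326 bp and the median minus log10 q was 10.02. These class values come from 1 list and were not tested against each other.

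**Figure D1:**
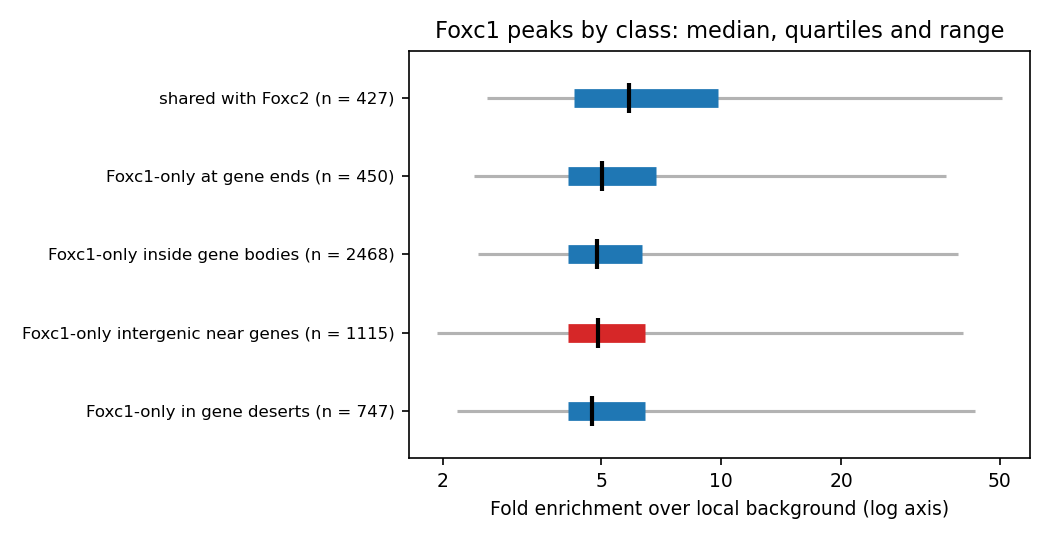
Fold enrichment of Foxc1 peaks (log axis) by class, with the median as a tick, the quartiles as a bar and the lowest and highest peak as a thin line. The intergenic peaks near genes, in red, have a median of 4.90 beside 4.75 to 5.03 in the other Foxc1-only classes and 5.85 in peaks shared with Foxc2.

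The highest of these peaks lay from 2.17 to 41.9 kb from the nearest gene end, next to genes of many kinds. The peak of highest fold (40.5, chr19:4484903-4485653) lay 8.13 kb from Syt12, a member of the synaptotagmin family, with the other neighbour, 2010003K11Rik, 11.5 kb away. The second (33.7, chr15:95756870-95757716) lay 33.5 kb before the start of Ano6, a calcium-activated phospholipid scramblase. The third (33.4, chr12:16870615-16871262) lay 24.0 kb before the start of Rock2, a kinase of the actin cytoskeleton. Next came peaks nearest to Fbxo47 (30.4, chr11:97899617-97900308, at 15.5 kb, with Plxdc1 23.3 kb on the other side) and to Ovol2, a zinc finger factor of epithelia (30.3, chr2:144299926-144300566, 4.93 kb past its 3′ end). Thbs1, which encodes thrombospondin 1, a matrix protein that activates latent TGF-beta, was 39.0 kb from a peak of fold 29.9 (chr2:118072561-118073185), and the next gene on the far side, Rasgrp1, was 730 kb away. The peak near the lectin gene Clec2d had a fold of 28.7 (chr6:129213375-129214188, 27.3 kb past the gene's 3′ end).

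Id3, an inhibitor of helix-loop-helix factors and a target of BMP signals, had a peak of fold 24.7 only 3.24 kb before its start (chr4:136140176-136140862). Peaks near Camk2n1, an inhibitor of the kinase CaMKII (25.7 at 21.0 kb), Rcsd1, whose product binds actin capping protein (24.7 at 14.6 kb), and the kinase gene Map4k4 (24.5 at 22.7 kb) were about as high. The other 4 of the 15 lay nearest to Cpeb4, an RNA-binding regulator of translation (23.3), Rapgef2, an exchange factor for Rap (22.3), Sh2d6 (22.1) and Fam207a (21.3). Of these 15 peaks, none was nearer than 15.1 kb to a Foxc2 peak, and the nearest was the one at Fbxo47. Ranking by q-value in place of fold gave the same 15 peaks. High peaks were found at every distance from genes, and fold and distance were nearly unrelated across the 1115 peaks (Spearman rho = 0.08, a description of peaks of 1 library).

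**Figure D2:**
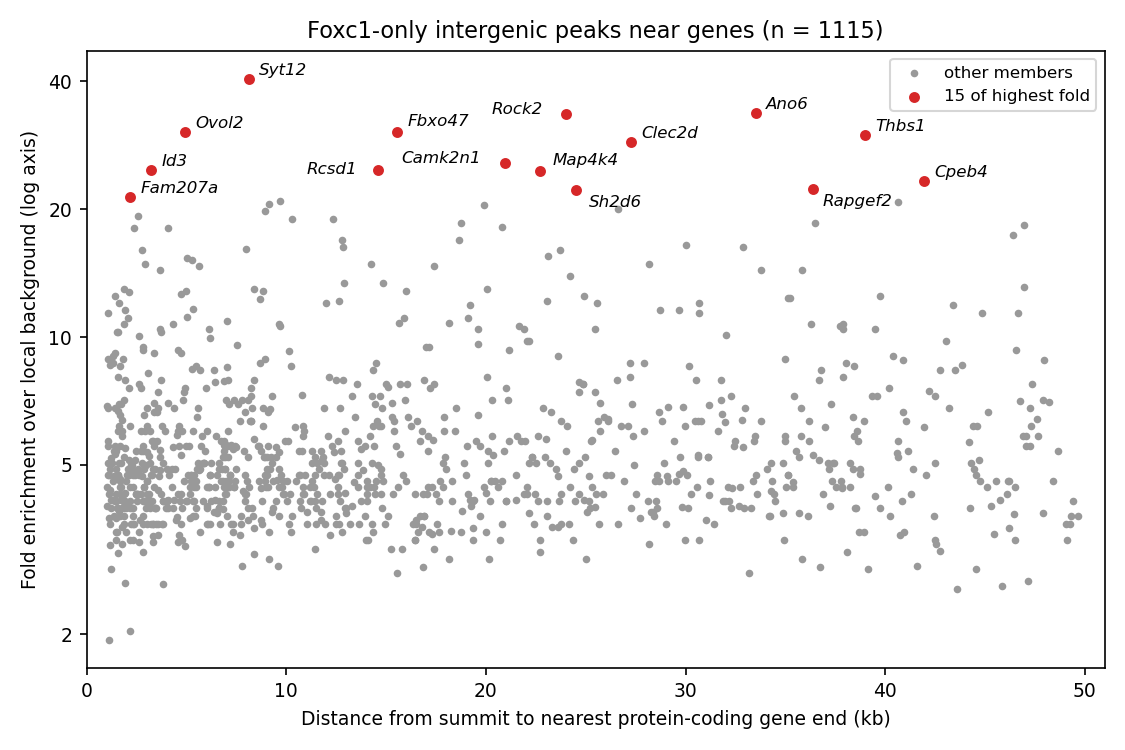
Fold enrichment (log axis) of each of the 1115 peaks against the distance of its summit from the nearest protein-coding gene end in kb, with the 15 of highest fold in red and named by that gene. The 15 lie from 2.17 kb (Fam207a) to 41.9 kb (Cpeb4) from a gene end, at folds of 21.3 to 40.5.

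Within the limits set by the choice of peaks, more of them lay near the inner limit than the outer one. The median distance was 12.5 kb (quartiles 4.99 and 25.7). Intergenic sequence also becomes scarcer with distance, so counts were divided by the sequence available at each distance between protein-coding genes. Between 1 and 2 kb there were 101 peaks in 32.0 Mb, or 3.15 per Mb, between 5 and 10 kb 2.01 per Mb, and between 40 and 50 kb 88 peaks in 64.9 Mb, or 1.36 per Mb. Over the whole zone the density was 1.81 per Mb of 617 Mb. The density per Mb thus differed by less than the raw counts per kb did.

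The peaks faced both ends of genes. Where the strand of the nearest gene could be read from RefSeq, the nearest end was the start of the gene for 472 of 865 peaks (54.6%, exact 95% interval 51.2 to 57.9%) and its 3′ end for the others. Of the intergenic sequence at these distances 54.0% was nearer to a start than to a 3′ end, a share inside that interval. Among peaks of fold 10 or more, 37 of 85 faced a start (43.5%, exact interval 32.8 to 54.7%). Of 749 peaks with strand known on both sides, 225 lay between the starts of both neighbours (30.04%), 146 between both 3′ ends (19.5%) and 378 between a start and a 3′ end. The intergenic sequence in each of these kinds of gap was not measured, so these counts show no preference for any of them.

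**Figure D3:**
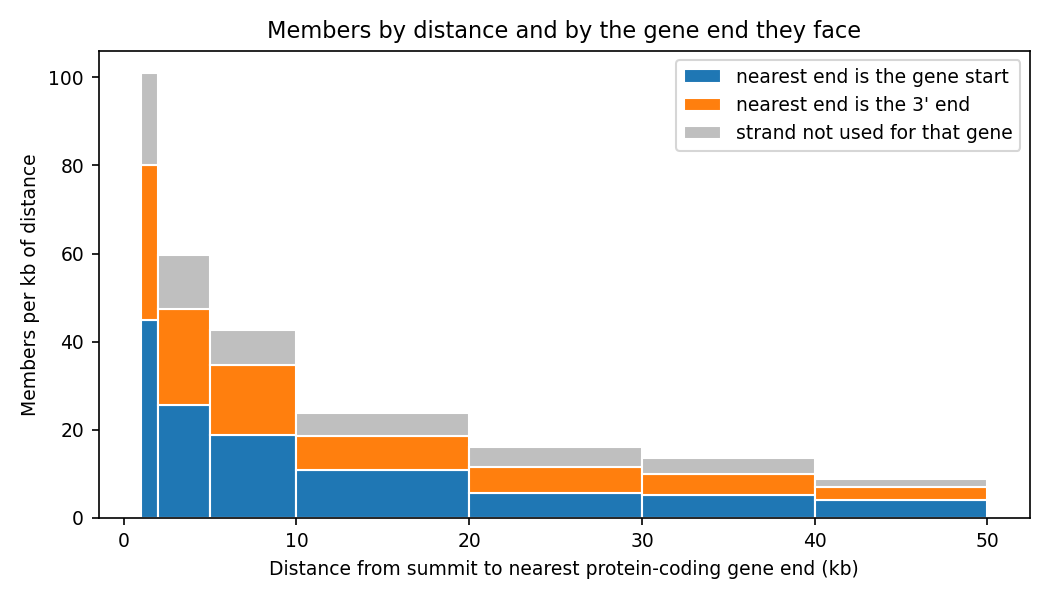
Number of peaks per kb of distance from the nearest protein-coding gene end, in bins from 1 to 50 kb, stacked by whether that end is the gene's start, its 3′ end or of a gene whose strand was not used. Peaks per kb run from 101 between 1 and 2 kb to 8.80 between 40 and 50 kb, with both kinds of end in every bin.

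Non-coding genes, which the choice of peaks did not use, lay under many of the peaks. The summit of 228 peaks was inside the span of a RefSeq non-coding gene (20.4%, exact 95% interval 18.1 to 22.9%), and for 220 of them that gene was an lncRNA. Non-coding gene spans covered 14.3% of the intergenic sequence between 1 and 50 kb from protein-coding genes, a value below that interval. This cover was pooled over the zone and not matched to the peaks by distance or chromosome, and the difference was not tested. The lncRNAs involved included Gm13986 at the peak near Thbs1, Gm38906 near Clec2d, Gm42329 at the peak before Id3 and Gm36660 near Zfp36l1. Among peaks in gene deserts the share was 22.9% and among those inside protein-coding genes 5.23%, with the cover of such sequence not measured. A microRNA hairpin lay within 10 kb of 12 peaks (1.08%), among them a peak of fold 7.91 at 6.68 kb from Mir193a. The share of intergenic sequence this close to a hairpin was not measured.

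Most genes had a single peak of this kind, and a few had several. The 1115 peaks had 980 different nearest genes, or 4.48% of the 21883 protein-coding genes, of which 863 were nearest to 1 peak, 102 to 2, 12 to 3 and 3 to 4. The 3 genes with 4 peaks were Cyb5b, a cytochrome b5 of the mitochondrial outer membrane, Cd34, a surface glycoprotein of endothelial and blood stem cells, and Grm4, a glutamate receptor. Cd34 had a peak of fold 13.4 at 12.9 kb before its start (chr1:194925698-194926157) and 3 peaks past its 3′ end, at 16.9, 19.6 and 21.2 kb, with folds of 7.91, 10.4 and 5.70. The Foxc2 peak nearest to any of the 4 was 1752 kb away. Cyb5b had folds of 6.17 and 14.9 before its start and 4.75 and 5.54 past its 3′ end, on both flanks as at Cd34. All 4 peaks of Grm4 were on the same side of the gene, with folds of 2.85, 6.33, 3.29 and 3.64, and 3 of them were below the median of 4.90.

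Spry2, an inhibitor of receptor tyrosine kinase signals, had 3 peaks past its 3′ end, at 1.06, 1.66 and 20.8 kb, and the farthest was the highest (fold 18.2, chr14:105870925-105871456). Skor1, a transcriptional corepressor, had folds of 5.0, 7.75 and 11.4 at 2.24, 15.7 and 46.6 kb past its 3′ end, the highest again the farthest. The tyrosine phosphatase genes Ptpn1 and Ptpn13 each had 3 peaks before their start, with folds of 4.11 to 5.85 and 5.06 to 7.02. Cyp39a1, an oxysterol hydroxylase, had folds of 4.43, 9.57 and 8.07 on 1 side. Nrp1, a co-receptor for VEGF and semaphorins, had 3 low peaks past its 3′ end, with folds of 3.64, 4.27 and 3.64, the farthest of them still 164 kb from the next gene, Itgb1.

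**Figure D4:**
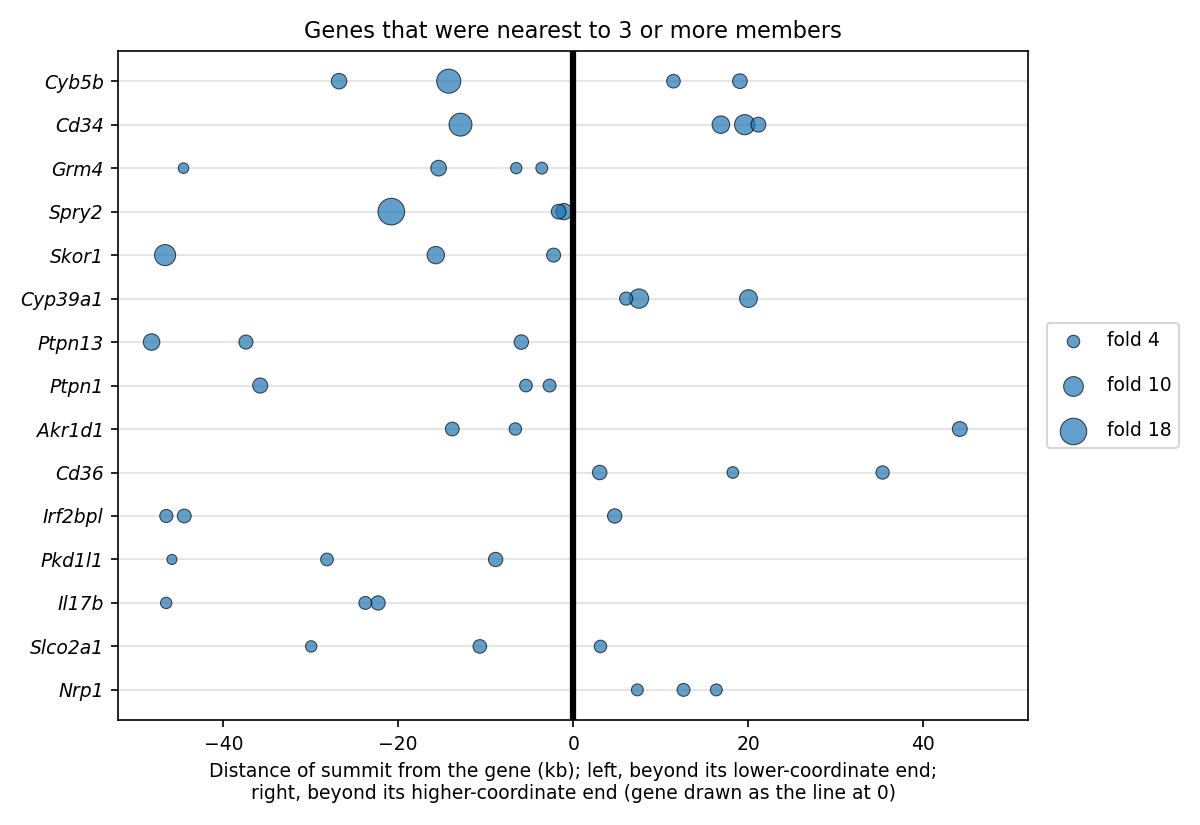
Position of each peak relative to its nearest gene, for the 15 genes nearest to 3 or more peaks. The gene is the line at 0, the x axis gives kb beyond its lower-coordinate end (left) or higher-coordinate end (right), and the dot area gives the fold. Cd34 and Cyb5b have peaks on both sides, while those of Grm4, Spry2, Skor1, Cyp39a1, Ptpn13, Ptpn1 and Nrp1 lie on 1 side.

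Most peaks of this kind lay apart from each other, but the share to be seen with evenly spread peaks was not computed. With summits chained within 10 kb, 1000 of the peaks stood alone, and 115 (10.3%) formed 53 pairs and 3 groups of 3, at Cd34, Grm4 and Nrp1. The pairs with the highest peak were at Id3 (folds of 24.7 and 3.30, on opposite sides of the gene), Dagla, the diacylglycerol lipase of endocannabinoid synthesis (16.9 and 10.4), Zfp36l1, an mRNA decay factor (16.0 and 5.85), Spsb1 (14.4 and 4.12) and Tsc22d3 (14.4 and 8.07). In the pair at Tsc22d3, the glucocorticoid-induced leucine zipper gene on chromosome X, both peaks lay past the 3′ end, at 3.67 and 12.1 kb.

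Lists of genes of the glomerulus and of signalling pathways were then examined for peaks within 50 kb of either gene end. Over all 21883 protein-coding genes 2012 had such a peak, or 9.19%, and each list is set beside this value. The genes of the lists were not matched to all genes for length, flanking intergenic sequence, chromosome or expression. A peak could count for several genes, and 603 of the 1115 peaks lay within 50 kb of more than 1. Of the 656 genes in any list 123 had a peak (18.8%), and 28 housekeeping genes alone gave 21.4%, so a share of this size was also seen in a list with no tie to the glomerulus. The highest shares were those of the glucocorticoid response (7 of 20, 35.0%), the list of basement membrane and receptor genes (9 of 26, 34.6%) and actin and focal adhesion (12 of 37, 32.4%). The lowest were immune cells (1 of 26, 3.85%), proximal tubule (2 of 32, 6.25%) and the Notch pathway (2 of 23, 8.70%). The lists share genes and were not tested. The housekeeping share also exceeded that of all genes within 20 kb (5 of 28, 17.9%, beside 4.54%). By nearest gene only it was 3 of 28 (10.7%) beside 4.48%. With peaks of fold 5 or more only, the share of all genes was 4.41% and 61 of the 656 list genes had a peak. The housekeeping list then had 1 of 28 (3.57%), so its high share was not seen with these stronger peaks. At that threshold the lists of Krüppel-like factors (5 of 17, 29.4%), of mesangium and pericytes (7 of 28, 25%) and of the glucocorticoid response (5 of 20, 25%) had higher shares than those of the basement membrane and its receptors (4 of 26, 15.4%), of actin and focal adhesion (5 of 37, 13.5%) and of podocyte markers (1 of 50, 2.0%).

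**Figure D5:**
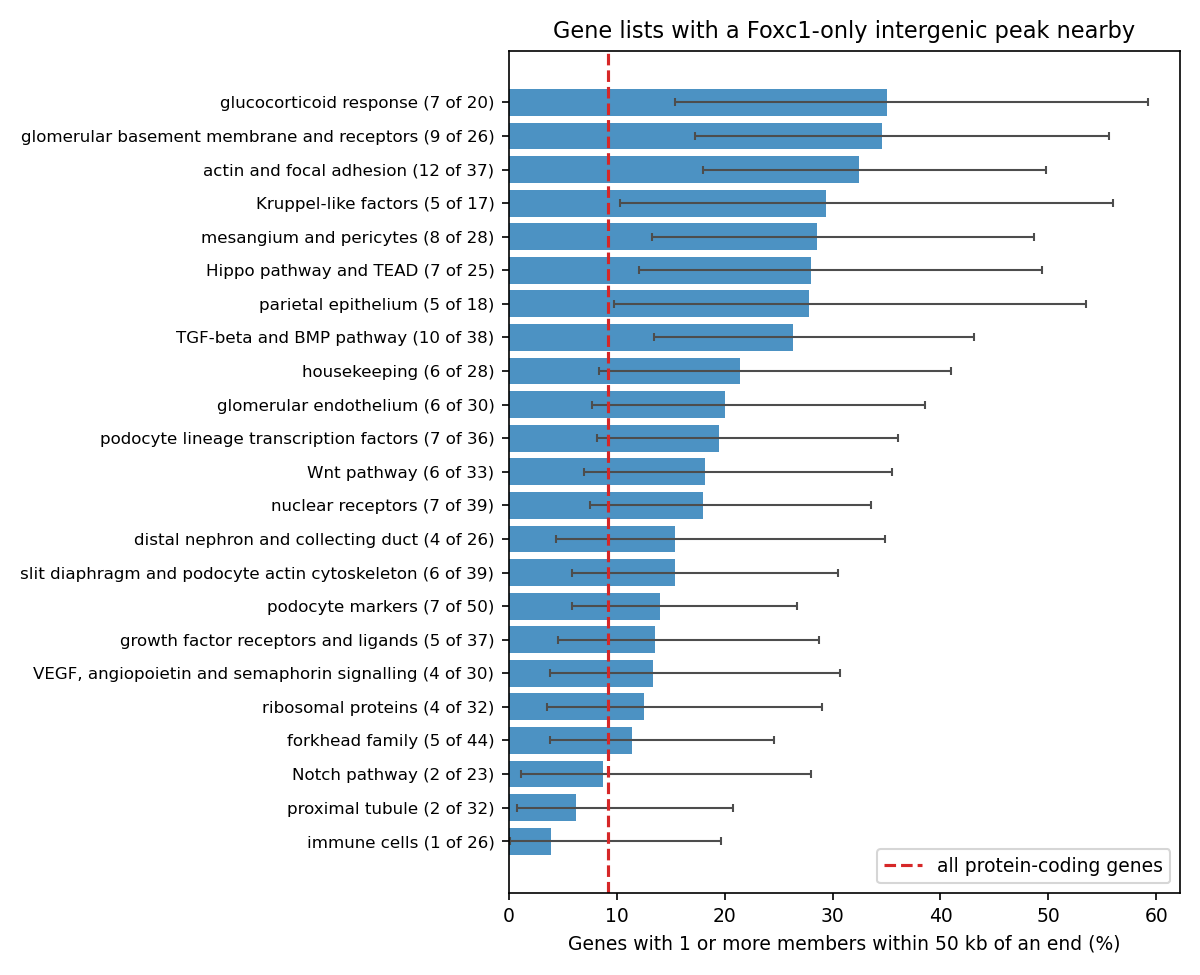
Share of the genes in each list (in %) that have 1 or more of these peaks within 50 kb of an end, with exact 95% intervals as thin lines and the count beside each name. The dashed line is the 9.19% of all protein-coding genes, and the lists run from 3.85% (immune cells) to 35.0% (glucocorticoid response).

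The glomerular basement membrane is the sheet of laminin, type IV collagen and nidogen between podocytes and endothelium, and its list also held the receptors that bind it. Of the 9 genes with a peak 4 were integrin chains, and 8 of the 9 were the nearest gene of a peak. Nid2, a nidogen that links laminin and collagen networks, had the highest, at fold 12.2 (chr14:19738306-19738926, 12.6 kb away), and its relative Nid1 had one of 5.38 at 26.5 kb past its 3′ end. Of the integrin chains, the receptors for this sheet, Itga3 had a peak of 5.70 at 3.53 kb before its start (chr11:95080197-95080547), Itga8 one of 6.01 at 4.59 kb before its start, and Itga6 peaks of 4.43 and 3.96 that were nearer to Pdk1. Col18a1, which encodes collagen XVIII, had a peak of 4.75 at 26.3 kb before its start. The remaining 3 genes had 1 peak each, with folds of 3.64 to 4.27. In the list of actin and focal adhesion genes each of the 12 genes had a single peak, and the median of their folds was 4.27 against 4.90 over all genes with a peak. Parva, an adaptor of integrin-linked kinase (6.78 at 9.19 kb), Bcar1, a docking protein of adhesion signals (6.01 at 2.92 kb before its start), Actn1 (5.70), Tns1, a tensin (5.22), Fermt2, an integrin activator (5.06), and Lpp (4.59) had the highest. The other 6 genes had folds of 3.0 to 3.96.

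Genes of TGF-beta and BMP signalling had 10 of 38 members with a peak (26.3%), and each of the 10 was the nearest gene of its peak. Inhibitors of the pathway were among them. Smad6, an inhibitory Smad, had a peak of fold 7.75 at 24.9 kb past its 3′ end (chr9:63927984-63928374) and one of 4.75 at 2.64 kb before its start. Skil, a Smad corepressor, had folds of 11.1 and 3.62, on opposite sides of the gene (chr3:31075752-31076192 for the higher). Of the Id genes, which BMP signals induce, Id3 had folds of 24.7 and 3.30 and Id1 one of 7.12 at 7.40 kb. Among receptors, Bmpr2 had a peak of 6.64 at 9.11 kb past its 3′ end and Tgfbr2 one of 4.90 at 5.52 kb before its start. The remaining 4 genes had folds of 3.86 to 4.59.

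In the Hippo pathway, which restrains the coactivators Yap and Taz and their TEAD partners, 7 of 25 genes had a peak (28.0%). The highest lay near Ccn2, a matrix-associated TEAD target (13.0 at 20.1 kb, chr10:24575147-24575619), and Ccn1, its relative, had one of 5.68 at 35.0 kb before its start. Amotl2, an angiomotin that binds Yap, had 6.17 and 4.43 on opposite sides, and Tead1 had 4.0. Within 20 kb of a gene end only Tead1 of the 25 had a peak (4.0%), beside 4.54% of all genes, so the share of this list did not exceed that of all genes at the shorter distance. Both peaks counted for the receptor kinase Axl (11.9 and 3.16) were nearer to Cyp2s1. In the Wnt list 6 of 33 genes had a peak (18.2%). Wnt7b had 7.91 and 4.11 at 12.8 and 24.4 kb (chr15:85594454-85594872 for the higher), Wnt4 had 7.12 at 8.07 kb past its 3′ end, and Sfrp2, a secreted Wnt antagonist, had 6.49 at 17.9 kb before its start. The peak of Wnt4 was also the only one near the small GTPase gene Cdc42, at 12.1 kb. The 2 Notch pathway genes with a peak, Numb (8.39) and Hes5 (7.12), were not the nearest gene of theirs.

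Genes of the other glomerular cells had shares of 20% to 28.6%, beside 14% for podocyte markers, a difference that was not tested. The exact 95% intervals of these other lists all included 14%, with lower ends from 7.71% (glomerular endothelium) to 13.2% (mesangium and pericytes). In the mesangium and pericyte list, the contractile cells of the capillary tuft, 8 of 28 genes had a peak (28.6%) and 7 of these were the nearest gene. Serpine2, a secreted protease inhibitor, had the highest, fold 20.04 at 26.6 kb before its start (chr1:79885021-79885571). Ptn, the growth factor pleiotrophin, had 8.70 and 4.60 at 8.70 and 9.55 kb before its start. Cald1, an actin-binding protein of smooth muscle, had 6.80 and 5.22 before its start, Des, the intermediate filament desmin, 5.85 and 3.64, and Fhl2 6.80 at 43.2 kb. All 11 peaks of the 8 genes lay on the start side, a pattern noticed after the values were seen.

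In the glomerular endothelium list 6 of 30 genes had a peak (20%). Lpl, the lipase of the capillary wall, had 15.5 (chr8:68857141-68857699, at 23.1 kb) and 5.54, the second nearer to Ints10. The ETS factor genes Fli1 and Ets1 had 4.43 and 4.11, and 4.43 and 3.96. Gata5 had 6.01 at 15.4 kb and Ehd3, a marker of glomerular capillaries, 4.33 at 7.83 kb, both before the start. Of the VEGF, angiopoietin and semaphorin genes 4 of 30 had a peak (13.3%), with Vegfa, the growth factor that podocytes supply to the endothelium, at 4.90 (chr17:46055727-46056091, 23.5 kb before its start, with a Foxc2 peak 3.28 kb away). In the parietal epithelium of Bowman's capsule 5 of 18 genes had one (27.8%), among them Pax2 (11.4, at 49.6 kb and nearer to Slf2) and Prom1 (9.18, at 3.36 kb before its start).

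Podocyte genes were covered by 3 lists, of markers, of the slit diaphragm and of lineage transcription factors. Of 50 podocyte markers 7 had one (14%, exact 95% interval 5.82 to 26.7%), with folds of 3.64 to 5.54, and 4 were the nearest gene, 8.0% beside the 4.48% of all genes. Cdkn1c, a cell cycle inhibitor of mature podocytes, had 5.54 by a peak nearer to Kcnq1, and Arhgap28, a GTPase activator, 4.75 at 15.8 kb before its start. Srgap1 had 4.59, nearer to Rxylt1, and Enpep, an aminopeptidase, 4.0. Wt1, the zinc finger master factor of the podocyte, had 1 peak of fold 4.90 (chr2:105117374-105117649), 9.03 kb from the gene and 8.69 kb from a Foxc2 peak. Among other genes examined in every case, Foxc1, Foxc2, Lmx1b, Tcf21, Nphs1, Podxl and Synpo had 0 of these peaks. In the slit diaphragm and podocyte actin list 6 of 39 genes had one (15.4%), with Dlc1, another GTPase activator, at 4.43 and 4.27, Cdh3 at 5.0, and Prkci, an atypical protein kinase C, at 11.1 by the peak nearest to Skil.

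Peaks in or at the genes gave another picture of the same lists. Of the podocyte markers 29 (58.0%) had another Foxc1 peak inside the gene or within 1 kb of it, and 34 (68.0%) a Foxc2 peak there. In the mesangium and pericyte list these were 14 (50%) and 2 (7.14%), in the glomerular endothelium 4 (13.3%) and 1 (3.33%), and in the parietal epithelium 3 (16.7%) and 0. Over all genes they were 10.9% and 10.1%. Gene length was not taken into account, and long genes can hold more peaks. The lists were chosen with earlier results of these data in view, so these shares are not independent evidence.

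Genes of transcription factors were examined by family. Of the 36 podocyte lineage factors 7 had a peak (19.4%), with Meis1, a homeodomain factor, at 11.1 (chr11:19024420-19024879, 5.02 kb before its start). Of 17 Krüppel-like factor genes 5 had one (29.4%) and each was the nearest gene of at least 1 peak. Klf3 had 10.1 and 4.59, Klf2, a factor of flow-exposed endothelium, 6.49 and 3.00, Klf15, a podocyte differentiation factor, 6.64 at 23.3 kb past its 3′ end, Klf12 6.17 and Klf5 5.38. Of 39 nuclear receptor genes 7 had a peak (17.9%), among them Nr2c2 (11.6 at 5.35 kb before its start), Nr2f1 (5.22 and 3.71, on opposite sides) and Nr4a1 (5.22). In the forkhead family itself 5 of 44 genes had one (11.4%). Foxi1 stood highest at 8.57 (43.9 kb past its 3′ end), and Foxp1 had 5.70 at 1.05 kb before its start, 0.098 kb from a Foxc2 peak. The peak counted for Foxj2 (7.92) was 0.274 kb from one. With only peaks that had no Foxc2 peak within 1 kb, 3 of the 44 genes had one (6.82%), beside 9.08% of all genes.

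The glucocorticoid response list had the most peaks for its size, 13 over 7 genes, and the highest median, 9.49, of each gene's highest fold. This list holds genes that glucocorticoid hormone induces in many tissues. Zfp36l1 had 3 peaks, of 16.0 (chr12:80083768-80084357, 23.7 kb past its 3′ end), 5.85 and 5.70, the last also counted for Actn1. Ddit4, an inhibitor of mTOR signalling, had 9.81, 4.11 and 3.64, and the first and second of these were nearer to Dnajb12. Nfkbia, the inhibitor of NF-kappa B, had 9.49 at 2.81 kb before its start (chr12:55495262-55495659) and 8.70 at 27.2 kb past its 3′ end. Tsc22d3 had 14.4 and 8.07, Errfi1, an inhibitor of the EGF receptor, 5.22, and Per1, a clock gene, 4.14 by a peak nearer to Borcs6. Gene lists were chosen with earlier results of these data in view, so the place of this list at the top is not independent evidence. Within 20 kb of a gene end 4 of the 20 genes had a peak (20%), beside 4.54% of all genes and 17.9% of the housekeeping list.

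Genes of tubules and immune cells gave the lists outside the glomerulus. In the proximal tubule list Hnf4a had the highest (7.88, nearer to Ttpal). In the distal nephron and collecting duct 4 of 26 genes had one (15.4%), Foxi1, Kcnj10 (6.80), Wnk4 (4.27) and Kcnj1 (4.11), and the last peak was also counted for Fli1. The only immune gene was Gzmb, a granule protease (4.27 at 2.52 kb). Of the ribosomal protein genes 4 of 32 had a peak (12.5%), with Rpl5 highest at 5.38, and none was the nearest gene. Growth factor genes gave 5 of 37 (13.5%), with Igfbp5, an IGF-binding protein, at 4.75 and 4.43, at 38.8 and 40.1 kb before its start.

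Foxc2 peaks, absent at these places by choice, lay near a minority of them. A missing Foxc2 peak means only that none was called in 1 library of unknown depth. It does not show that Foxc2 was unbound there. A Foxc2 peak lay within 10 kb of 115 of the 1115 peaks (10.3%, exact 95% interval 8.59 to 12.2%) and within 50 kb of 336 (30.1%). Within 10 kb this was 10.4% for Foxc1-only peaks in gene bodies, 17.1% at gene ends and 2.54% in gene deserts. From the lowest to the highest quartile of fold it was 10.4, 9.32, 10.4 and 11.1%, so that strong and weak peaks had Foxc2 neighbours about equally often. At 17 peaks the gap was under 1 kb, the narrowest of 0.001 kb near Borcs6 and the next of 0.009 kb near Irf2bpl. Of the 980 nearest genes 221 had a Foxc2 summit inside the gene or within 1 kb of it (22.6%), against 10.1% of all protein-coding genes, and 253 had another Foxc1 summit there (25.8% against 10.9%). No test was made of these differences, and gene length and expression were not matched.

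The limits of the choice cut through continuous values. Just over the 1 kb limit lay peaks near Pdcd2 (1.005 kb, fold 4.43), Prkra (1.02 kb, 4.0) and Tram1l1 (1.03 kb, 6.88), and just under it those near Ap1g1 (0.985 kb, 4.0), Erlin1 (0.986 kb, 6.49) and Pde9a (0.989 kb, 4.11). At the 50 kb limit the last inside were near Ubr2 (49.3 kb, 3.80), Cstad (49.4 kb, 4.11) and Steap4 (49.7 kb, 3.80), and the first outside near Cstad again (50.2 kb, 3.80), Aldoart1 (50.4 kb, 7.59) and Tut7 (50.4 kb, 2.86).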

How the data were processed

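Foxc1 and Foxc2 ChIP-seq peak lists of mouse glomeruli were used, 1 library each, grouped by sample title. The submitters' processing notes name Bowtie2, MACS2 and the build mm10. Not given in the sources used here were versions, settings and the control library. The deposited fold enrichment (a ratio over the caller's background), −log10 p-value and −log10 q-value are the authors', and the deposited score, 10 times the −log10 q with decimals dropped, was not used. Depth is unknown. On chromosomes 1 to 19, X and Y the lists held 5207 and 2878 peaks, and 6 and 3 peaks on other sequences were left out.

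Gene spans, 21883 of them protein-coding, came from RefSeq GRCm38.p6, and strand from its promoter table (17491 of those genes). All 656 names in the 23 gene lists were found. No genome sequence was used. Classes, distances and counts were computed in Python 3.11.15 with pandas 2.3.3 and scipy 1.17.1, and checked on simulated data. The peaks and lists were chosen with earlier results of these data known. Named are the 15 peaks of highest fold, the 8 largest clusters, the 8 genes nearest to most peaks, up to 6 genes of each list with the most peaks (ties by fold), the 3 peaks on either side of each limit and a fixed set of podocyte genes; some results of these lists are not reported here. Other names were chosen after their values were seen. Alternatives changed the overlap, peak thresholds, distances, genes, assignment, chaining and ranking.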

Additional observations from a re-analysis of the deposited data

How the results depend on the processing

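The count of 1115 peaks stayed within 1.5 times under 7 of 9 alternatives, from 835 with a lower limit of 5 kb to 1375 with an upper limit of 100 kb. It was 531 with peaks of fold 5 or more and 732 with an upper limit of 20 kb. With non-coding genes counted as genes, 1210 peaks qualified, of which 842 were among the 1115. The 123 list genes became 61 with peaks of fold 5 or more and 78 within 20 kb. Clusters numbered 56 at 10 kb, 31 at 5 kb and 92 at 20 kb. Under all 6 assignments 12 of the 23 lists had a share above that of all genes, and immune cells and proximal tubule had one under none. The housekeeping and ribosomal protein lists each had one under 5 of the 6. Motif windows around summits were not run, since no genome sequence was used. Counts of single lists moved by over 1.5 times in 18 of 23 lists with peaks of fold 5 or more, in 13 with the nearest gene only, in 11 within 20 kb and in 1 with no Foxc2 peak within 1 kb. Depth could not be weighed, since peak lists carry no read counts. No paired analysis was possible because each antibody had 1 library.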

Other observations

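Chromosome X carried few of these peaks, and few Foxc1 peaks of any class. It had 32 of the 5207 Foxc1 peaks, of which 18.8% were of this kind beside 21.4% over all chromosomes. These were 6 peaks in 45.4 Mb of intergenic sequence between 1 and 50 kb from genes, or 0.132 per Mb, while the 19 autosomes had from 1.02 per Mb (chromosome 7) to 3.11 per Mb (chromosome 11). Both peaks at Tsc22d3 were among the 6, and the others lay near Tmsb4x, which encodes the actin-sequestering thymosin beta 4 (fold 10.4), Ogt, the O-GlcNAc transferase (7.75), Rbbp7 (5.22) and Utp14a (4.43). Chromosome Y had 1, of fold 2.67, near Gm52481.

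The deposited folds came in even steps. Of the 1115 folds, 834 (74.8%) were whole multiples of 0.158 within 0.01 of a step, and the peaks took 256 different values, so neighbours in the ranking were often tied, such as Rcsd1 and Id3 at 24.7.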
